A study of Homo sapiens with 4 samples.

Results

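Nucleosomes were described at the promoters of 10 genes of polyamine metabolism in BE(2)C cells, an established MYCN-amplified human neuroblastoma line. The genes were ODC1, SRM, AMD1, OAZ1, OAZ2, AZIN1, PAOX, SMOX, DHPS and MTAP. They were a named list of autosomal genes and were 10 of the 20163 protein-coding genes of the annotation used (GENCODE 44 lifted to GRCh37). Distances were counted from the transcription start site (TSS) of each canonical transcript. No value from the nucleosome maps entered the rule for the members, but earlier results of these data were known when the list was made. The control group was 2 libraries from cells given a control siRNA, and the MYCN knockdown group was 2 libraries from cells given an siRNA against MYCN. The labels give wild type cells, 80 nM siRNA and an incubation of 6 h for both groups. By the paper's methods, medium with serum was added after 6 h with the siRNA mix, and cells were collected on the day after transfection. The labels name no separate cultures, and the paper's methods call the MNase-seq replicates biological without describing them further. The p-values below measure the spread between these libraries, and how far that spread is technical is not stated. Both groups carry the MYCN amplification, and a nucleosome map holds no check of how far MYCN itself was lowered. The paper reports lower MYCN mRNA and protein upon knockdown in these cells, by qPCR, RNA-seq and Western blot.

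The polyamines putrescine, spermidine and spermine are small positively charged molecules that bind nucleic acids and are needed for proliferation. ODC1 makes putrescine from ornithine and is a textbook target of the MYC family of transcription factors. SRM and AMD1 serve the next step, in which an aminopropyl group taken from decarboxylated S-adenosylmethionine turns putrescine into spermidine. The antizymes OAZ1 and OAZ2 bind ODC1 and send it to the proteasome, and AZIN1 binds the antizymes. SMOX and PAOX oxidise spermine and acetylated polyamines back towards the smaller ones. DHPS uses spermidine to make hypusine on the translation factor eIF5A, and MTAP salvages the methylthioadenosine that spermidine synthesis leaves behind. MYC and MYCN bind DNA as dimers with MAX, and CACGTG, the canonical E-box, is the sequence they bind best.

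CACGTG sites are shown first, since they are the places at which a nucleosome could cover or expose the motif of the transcription factor that was knocked down. Within 2 kb of the TSS, 7 of the 10 genes held at least 1 such site and 15 sites were found in all, against 43.5% of all protein-coding genes with at least 1 site. ODC1, SRM and AMD1, the genes of putrescine and spermidine synthesis, held 3 sites each, a number reached by 3.50% (705) of all promoters. OAZ1, OAZ2 and SMOX held none. CACGTG reads the same on both strands, so each site was counted once. Between -250 and +50 bp, SRM and DHPS held 1 site each, whereas 8.74% of all genes had one there. A match is a description of the letters and not a bound site. The sites of 5 genes are printed below from GRCh37 on the strand of the gene, named by their distance from the TSS in bp, with CACGTG in capitals and 12 bases on each side.
ODC1 site at -490 (chr2:10588929-10588958, minus strand): cccggcggggccCACGTGgccagcacatcg
ODC1 site at +288 (chr2:10588150-10588179, minus strand): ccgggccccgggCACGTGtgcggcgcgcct
ODC1 site at +322 (chr2:10588116-10588145, minus strand): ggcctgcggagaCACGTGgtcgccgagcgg
SRM site at -196 (chr1:11120257-11120286, minus strand): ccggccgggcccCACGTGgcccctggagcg
SRM site at +453 (chr1:11119607-11119636, minus strand): tgcgccccgctcCACGTGtcagccctcagg
SRM site at +543 (chr1:11119517-11119546, minus strand): gccgttcctcgcCACGTGtcaccatcgctc
AMD1 site at -1342 (chr6:111194631-111194660, plus strand): gtttcacggagaCACGTGaaccacgttctt
AMD1 site at +1720 (chr6:111197694-111197723, plus strand): aatccaggcagaCACGTGctaccgagactt
AMD1 site at +1893 (chr6:111197867-111197896, plus strand): acgtgccaggctCACGTGagattataggaa
DHPS site at -36 (chr19:12792716-12792745, minus strand): gctaaaaatggtCACGTGataaaccaactt
MTAP site at +644 (chr9:21803265-21803294, plus strand): ttgcctgcggccCACGTGggagaactgctt
The ODC1 pair at +288 and +322 lay in the first intron with 28 bases between the motifs, and the SRM pair at +453 and +543 lay in introns with 84 bases between them, both by the canonical transcripts. The AMD1 sites were farther out, at -1342 upstream and at +1720 and +1893 in introns.

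The sequence just upstream of the TSS is printed for ODC1, which had a nucleosome there in most libraries, and for SRM, whose window holds a CACGTG (in capitals).
ODC1 upstream window (chr2:10588454-10588653, minus strand): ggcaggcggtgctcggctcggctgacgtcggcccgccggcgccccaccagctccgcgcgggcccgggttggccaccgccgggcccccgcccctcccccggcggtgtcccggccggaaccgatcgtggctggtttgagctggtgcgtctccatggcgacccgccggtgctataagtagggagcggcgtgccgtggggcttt
SRM upstream window (chr1:11120078-11120275, minus strand): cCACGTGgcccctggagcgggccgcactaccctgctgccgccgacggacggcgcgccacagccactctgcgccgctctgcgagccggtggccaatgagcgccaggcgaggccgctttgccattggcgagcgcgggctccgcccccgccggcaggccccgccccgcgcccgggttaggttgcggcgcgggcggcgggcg
The windows of ODC1 and SRM were rich in G and C, at 76.5% and 79.8%, and held 28 and 32 CpG dinucleotides. Over the 301 bp from 250 bp upstream to 50 bp downstream, the 10 genes had a median GC content of 71.1% (range 52.8% to 84.4%) against 63.5% for all promoters, and a median ratio of observed to expected CpG of 0.914 against 0.773. Of other textbook promoter elements, looked for after the data had been seen, the GC box GGGCGG (either strand) was found from 250 bp upstream to 50 bp downstream in 9 of 10 genes and 61.0% of all genes. CCAAT (either strand) was found in 3 of 10 and 35.9%. TATAA on the gene's own strand began between 35 and 25 bases upstream of the TSS in 4 of 10 genes, ODC1, AMD1, OAZ1 and AZIN1, and in 5.79% of all genes. In the ODC1 window it begins 32 bases before the TSS.

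Libraries came from MNase-seq, in which micrococcal nuclease removes the linker DNA and the DNA held by nucleosomes is sequenced. Each library was given as a list of called nucleosomes with a dyad (the midpoint of the called nucleosome), a read count and a fuzziness (the SD in bp of read midpoints around the dyad). Replicate 1 was the shallower library in both groups, at 147726171 listed reads for the control and 147370973 for knockdown, and replicate 2 the deeper, at 242544884 and 239257113. The median nucleosome had 12 reads in both replicates 1 and 18 in both replicates 2. Nucleosomes with fewer than 6 reads were not in the lists, so absence of a nucleosome means that too few reads were called there. Single nucleosomes at these genes rested on 6 to 44 reads in the landmarks described below, which limits what can be told apart.

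The window reaching 200 bp before and 50 bp past the TSS, where active promoters tend to lack a nucleosome, was called free when no nucleosome had at least 80% of its length inside. It was free in all 4 libraries at 8 of the 10 genes: SRM, AMD1, OAZ2, AZIN1, PAOX, SMOX, DHPS and MTAP. Of 20079 promoters, 32.3% were free in all 4. ODC1 and OAZ1 each held a nucleosome in the window in 3 of the 4 libraries, and no member held one in all 4. Of the members free in both controls, 0 of 8 were filled in both libraries of the knockdown, as 5.25% of 8457 promoters were, and of those free after knockdown, 0 of 8 were filled in both controls, as 5.64% of 8559 promoters were. The count of 8 rests on the 80% rule. With a nucleosome counted at 50% inside, 5 of the 10 windows were free in all 4 libraries, against 19.1% of all promoters.

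**Figure D1:**
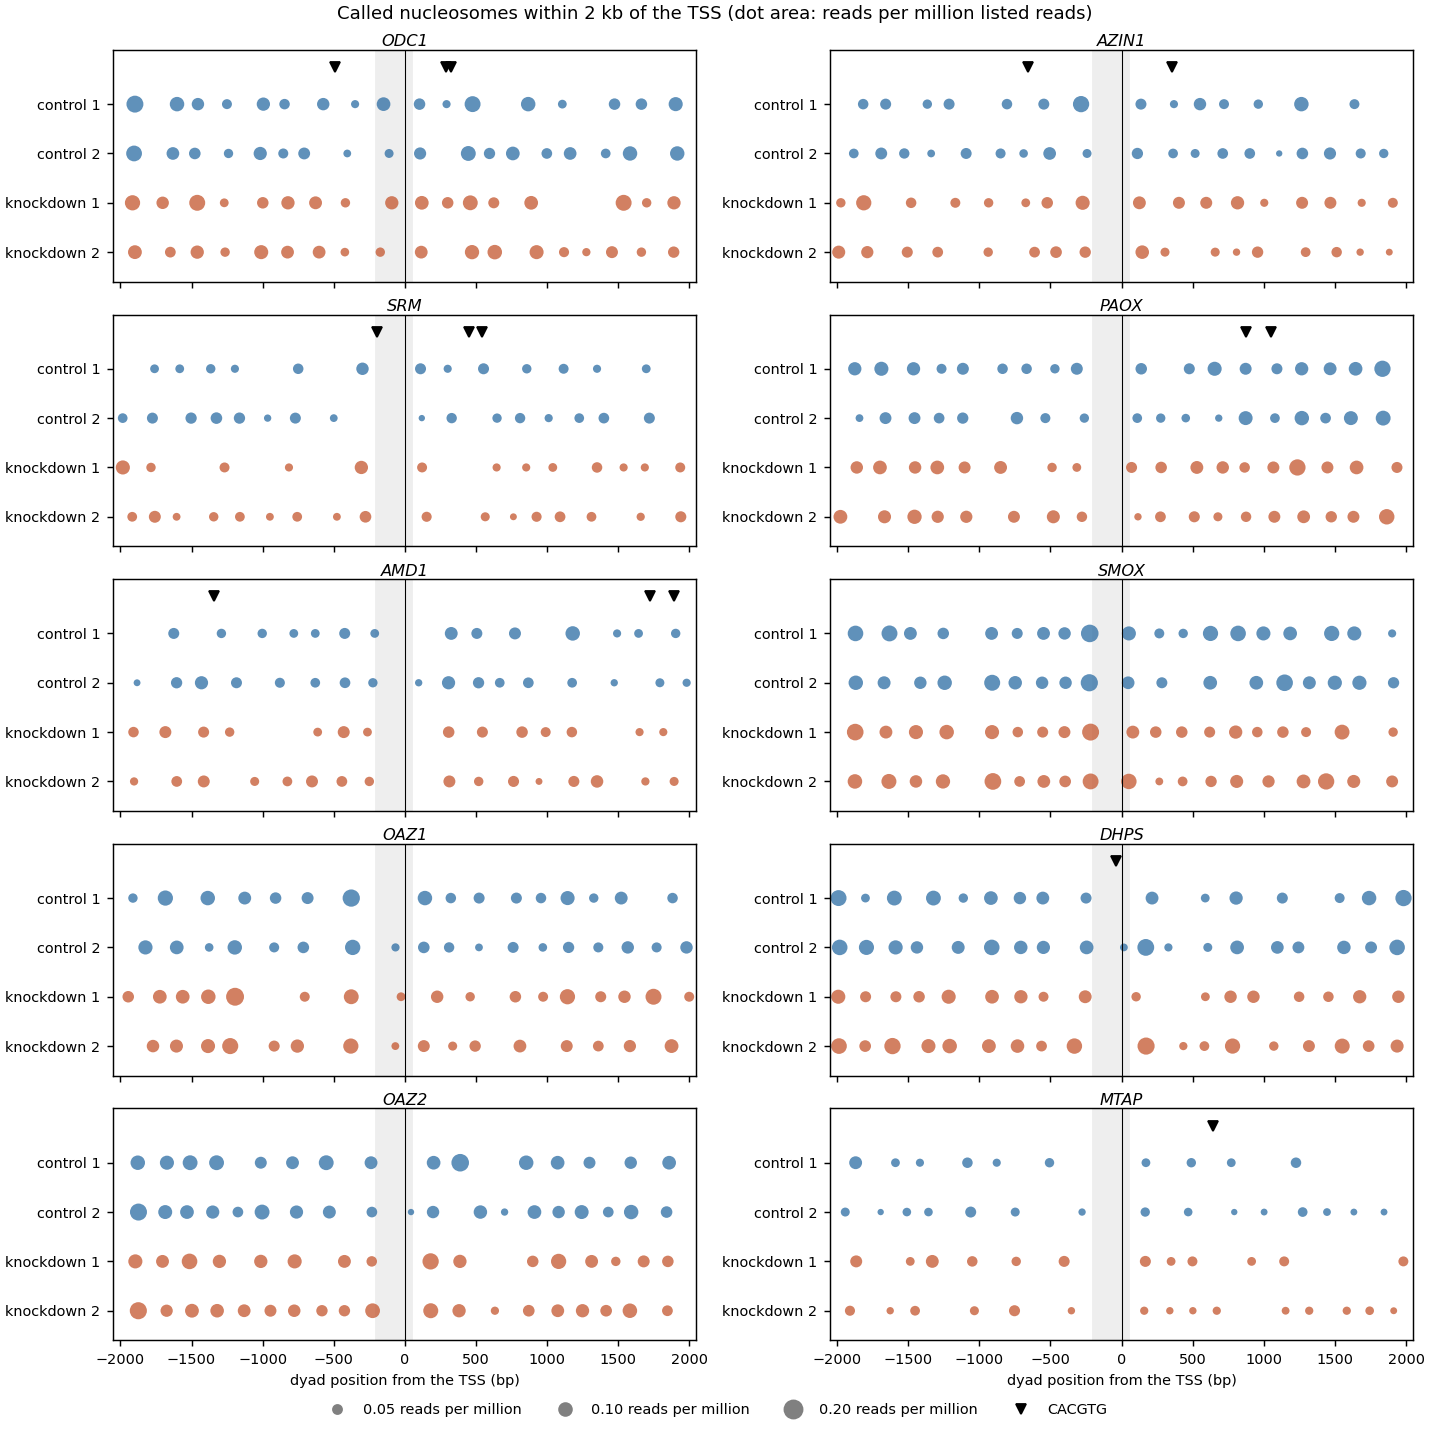
Called nucleosomes within 2 kb of the TSS of the 10 genes. The x axis is the distance of the dyad from the TSS in bp, each line is 1 library, the area of a dot is the reads of the nucleosome per 1000000 listed reads, triangles mark CACGTG and the grey band is the window reaching 200 bp before and 50 bp past the TSS. Dots mark dyads, so a dot in the band counts against a free window only where 80% of the nucleosome is inside, which was so in 3 of 4 libraries each at ODC1 and OAZ1.

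ODC1 encodes ornithine decarboxylase, the enzyme that commits ornithine to polyamine synthesis. It lies on the minus strand of chromosome 2 from 10580094 to 10588453, with its TSS at 10588453 and a first exon of 207 bp. A nucleosome lay in its window with 17 reads in control replicate 1, 12 in control replicate 2 and 16 in knockdown replicate 1. In knockdown replicate 2 the window counted as free, with the closest dyad at -173 and 13 reads, just too far upstream for the 80% rule. A nucleosome was thus near the ODC1 start in every library and the groups were not separated by its presence. The first nucleosome downstream of the window, called +1, had its dyad at 103 and 107 bp in the controls and at 119 and 115 bp upon knockdown, with 12, 22, 17 and 24 reads. It was farther downstream in both knockdown libraries by a distance that is small beside its fuzziness of 30.2 to 40.8 bp. Shifts of single dyads, here and at the genes below, were not tested, since 2 libraries a group allow no exact p below 0.333. Ranked by mean reads over the 4 libraries, scaled to the list totals, the nucleosome with most reads lay far upstream, at -1898, -1904, -1915 and -1898 bp. It had 26 and 37 reads in the controls, against 21 and 28 upon knockdown, where other ODC1 nucleosomes had more.

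AMD1 encodes S-adenosylmethionine decarboxylase, which makes the aminopropyl donor. It lies on the plus strand of chromosome 6 from 111195973 to 111220082, with its TSS at 111195988. The first dyad upstream of the window, called -1, was at -212 and -225 bp in the controls with 7 and 13 reads, and at -263 and -250 bp upon knockdown with 7 and 13 reads. It was thus farther upstream in both knockdown libraries, in nucleosomes of at most 13 reads whose fuzziness reached 48.3 bp. The +1 dyad was at 326 bp in control replicate 1, 308 bp in knockdown replicate 1 and 313 bp in knockdown replicate 2. In control replicate 2 an additional nucleosome of 8 reads was called at 97 bp, before the one at 307 bp. The nucleosome near 313 bp ranked first at AMD1 by the same mean, though in no library was it alone the highest, with 15 and 26 in the controls, against 12 and 21 upon knockdown, and the 4 dyads fell within 19 bp. The space between -1 and +1 was therefore long in 3 libraries, at 391, 424 and 416 bp, and 175 bp in control replicate 2.

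SRM encodes spermidine synthase. It lies on the minus strand of chromosome 1 from 11114641 to 11120077, with its TSS at 11120075. Its +1 dyad was at 110 and 119 bp in the controls and at 121 and 153 bp upon knockdown, with 11, 6, 9 and 15 reads. The -1 dyad was at -298 bp in control replicate 1 and at -306 and -277 bp upon knockdown, with 14, 16 and 20 reads. In control replicate 2 no nucleosome was called there and the first one upstream was at -500 bp with 9 reads. The CACGTG at -196 lay in the space between -1 and +1 in all 4 libraries. That space was 261 and 472 bp in the controls, against 280 and 283 bp upon knockdown, so the groups overlapped and the long value came from 1 library.

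Of the regulators, OAZ1 (chromosome 19 from 2269508 to 2273489, plus strand) encodes the main antizyme, whose translation needs a ribosomal frameshift that polyamines favour. Its window was free in control replicate 1 and held a nucleosome of 10 reads in control replicate 2, and of 7 and 9 reads upon knockdown. The groups overlapped, and counts this low lie close to the minimum of 6. The -1 nucleosome of OAZ1 ranked first by mean scaled reads, and held the most reads in both controls and in neither knockdown library, with 27 and 35 reads in the controls, against 20 and 34 upon knockdown, and its dyad stayed within 13 bp, at -377, -367, -377 and -380. OAZ2 (chromosome 15 from 64979772 to 64995480, minus strand), another antizyme made through the same frameshift, had its -1 dyad within 11 bp, at -238 and -232 in the controls, against -233 and -227 upon knockdown. Its +1 dyad was at 202 bp in control replicate 1 and at 181 and 182 bp upon knockdown, and in control replicate 2 a nucleosome of 6 reads was called first, at 43 bp. That extra nucleosome was at the minimum of the list.

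AZIN1, the antizyme inhibitor, resembles ODC1 but lacks its activity. Its canonical TSS lies 29701 bp downstream of its most upstream one. The -1 dyad was at -285 and -243 bp in the controls and at -274 and -256 bp upon knockdown, with 24, 12, 18 and 19 reads. The +1 dyad was at 136 and 111 bp in the controls and at 125 and 145 bp upon knockdown. Both nucleosomes differed more between the controls than between the group means.

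SMOX encodes spermine oxidase, which converts spermine to spermidine with release of hydrogen peroxide. The gene spans 4101627 to 4168394 of chromosome 20 (plus strand), with the canonical TSS at 4129475. Its -1 nucleosome was among the best placed of the list, with dyads at -224 and -227 bp in the controls and at -218 bp in both knockdown libraries, and with 28, 44, 26 and 37 reads. The dyad was nearer the TSS in both knockdown libraries, by at most 9 bp, in a nucleosome whose fuzziness was 22.9 to 32.4 bp. Its +1 dyad was at 51, 46, 79 and 51 bp, closer to the TSS than that of most other members. Only 122 to 150 bp lay between the edges of -1 and +1, the shortest mean space of the 10 genes at 131.5 bp, against a median of 282 bp over all promoters.

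PAOX, on the plus strand of chromosome 10 from 135192765 to 135205198, encodes the peroxisomal oxidase of acetylated polyamines. Its -1 dyad was at -315 and -262 bp in the controls and at -315 and -279 bp upon knockdown, so that libraries of the same replicate number were the most alike. Its +1 dyad was at 138 and 110 bp in the controls and at 70 and 115 bp upon knockdown, with 12, 14, 11 and 8 reads. The groups overlapped.

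DHPS, on the minus strand of chromosome 19 from 12786531 to 12792694, encodes deoxyhypusine synthase. Its -1 dyad was at -250 and -246 bp in the controls and at -256 and -332 bp upon knockdown, with 11, 28, 15 and 35 reads. The +1 dyad was scattered over 198 bp, at 214 and 16 bp in the controls and at 102 and 172 bp upon knockdown. In control replicate 2 the nucleosome at 16 bp had 9 reads and was the only one that covered the CACGTG at -36.

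MTAP, on the plus strand of chromosome 9 from 21802635 to 21937650, encodes methylthioadenosine phosphorylase and is a neighbour of the tumour suppressor CDKN2A. Its +1 dyad was the most closely kept of the 8 genes whose window was free in all libraries, at 171 and 166 bp in the controls and at 167 and 159 bp upon knockdown, with 7, 13, 11 and 10 reads. It was the only one of these 8 with all dyads within 20 bp. Of all promoters with a free window in all 4 libraries, 28.4% had such +1 dyads, and the median range was 40 bp. The -1 dyad of MTAP, in contrast, ranged over 229 bp, from -507 to -278, with 8 to 11 reads.

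Whether MYCN knockdown changed the reads of a whole promoter was asked with the sum of reads over nucleosomes whose dyads lay between -2 kb and +1 kb, 3001 bp for every gene. ODC1 had 191 and 296 reads in the controls, against 209 and 299 upon knockdown. Counts per 1000000 (CPM) were taken over the summed reads of all promoters tested, with TMM scaling, and not over the listed reads. ODC1 had 57.7 and 55.0 CPM in the controls, against 65.1 and 56.8 upon knockdown. One control of ODC1 lay above one knockdown library, so the groups overlapped, and the log2 change was 0.11 (SE 0.14, 95% interval -0.17 to 0.39). AMD1 had 29.6 and 39.6 CPM in the controls, against 35.2 and 34.96 upon knockdown, a log2 change of -0.00089 (SE 0.18, interval -0.35 to 0.35). SRM had 26.6 and 32.7 CPM in the controls, against 24.3 and 32.7 upon knockdown, a log2 change of -0.051 (SE 0.22, interval -0.48 to 0.38). In CPM, no difference in the genes of polyamine synthesis exceeded the spread between replicates.

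The antizyme genes were as close. OAZ1 had 53.2 and 47.2 CPM in the controls, against 53.9 and 52.8 upon knockdown, and OAZ2 had 61.6 and 62.4 in the controls, against 56.7 and 65.9 upon knockdown. AZIN1 was the only member whose groups did not overlap, at 40.2 and 40.7 CPM in the controls, against 46.7 and 43.5 upon knockdown. Of all promoters, 15% were higher in both knockdown libraries than in both controls and 15.3% were lower in both, so 1 of 10 is not above that background. The log2 change of AZIN1 was 0.15 (SE 0.16, unadjusted p 0.335 and adjusted p 0.999 by edgeR's quasi-likelihood test with Benjamini-Hochberg adjustment), and at the most upstream TSS of the gene it was -0.14.

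PAOX had 50.5 and 39.6 CPM in the controls, against 52.0 and 49.4 upon knockdown, and its log2 change of 0.19 (SE 0.15) had the lowest unadjusted p of the 10, at 0.222 in edgeR. That change rested on control replicate 2, without which it was 0.0032, and without control replicate 1 it was 0.35. SMOX had 75.8 and 67.4 CPM in the controls, against 72.0 and 68.0 upon knockdown. DHPS followed the replicate number and not the group, with 52.3 and 53.0 CPM in both replicates 1 and 68.0 and 69.0 in both replicates 2. MTAP had 22.4 and 20.1 CPM in the controls, against 30.5 and 21.1 upon knockdown, the largest log2 change of the list at 0.27 (SE 0.29), and without knockdown replicate 1 it was -0.0028.

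By edgeR's quasi-likelihood test 0 of the 10 promoters passed an adjusted p of 0.05, and so did 0 of all 20106 promoters tested (0%), with 634 at an unadjusted p under 0.05 and a smallest adjusted p of 0.999. With DESeq2 the count over all promoters was 0 as well. The log2 change was above 0 for 6 members and below 0 for 4, from -0.051 to 0.27, with a median of 0.058 against -6.8e-05 over all promoters. The SE ranged from 0.14 to 0.29, and the 95% interval was -0.11 to 0.49 for PAOX and -0.31 to 0.85 for MTAP. Changes of 1 SE, and larger ones within such intervals, could not be told from the spread. In a narrower window, 500 bp on each side of the TSS, OAZ2 had 60 and 46 reads in the controls, against 65 and 110 upon knockdown, a log2 change of 0.70 (SE 0.28). Its unadjusted p there was 0.0192 in edgeR and its adjusted p 0.9997, and the 3001 bp window gave a log2 change of -0.0068. Control replicate 2 and knockdown replicate 2 set that difference, since the replicates 1 had 60 and 65 reads. In control replicate 2, nucleosomes of 25 and 27 reads had dyads at -531 and 531 bp, just outside the 500 bp. Those reads were not counted, so the difference depended on where dyads fell beside the edge.

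**Figure D2:**
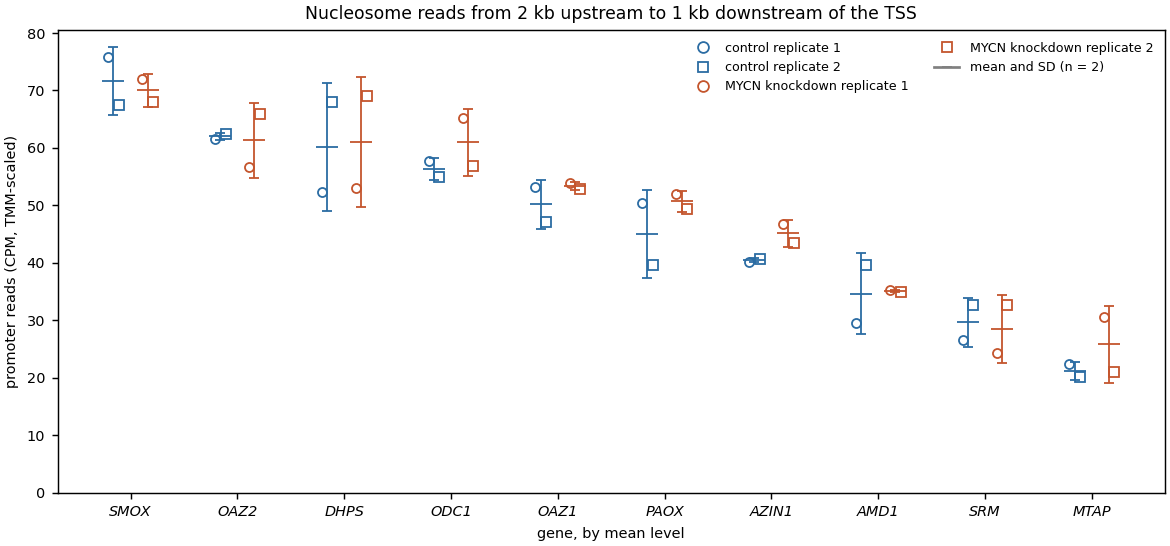
Promoter reads of the 10 genes in CPM, summed between -2 kb and +1 kb and ordered by mean level, with each library as a point and the mean and SD (n = 2) of each group as a bar with whiskers. The points of the groups interleave at all genes except AZIN1, where both knockdown libraries (46.7 and 43.5) lie above both controls (40.2 and 40.7).

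The levels themselves differed 3-fold among members and were ordered alike in both groups. SMOX had the highest mean over the 4 libraries, 70.8 ± 3.90 CPM (SD, n = 4), and MTAP the lowest, 23.5 ± 4.78 CPM, against a median of 49.7 CPM over all promoters. OAZ2 (61.7), DHPS (60.6) and ODC1 (58.7) followed SMOX. Their ranges overlapped each other, that of DHPS also reached into that of SMOX, and those of OAZ2 and ODC1 did not. OAZ1 (51.8), PAOX (47.9) and AZIN1 (42.8) came next, each overlapping its neighbour. AMD1 (34.8), SRM (29.1) and MTAP (23.5) were lowest, and each overlapped the next one. All windows have the same length, so these are levels per length.

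Beside these levels stands the level of the chromosome segment, taken as the median 10-kb bin within 500 kb of the TSS over the median autosomal bin. It was 1.54 ± 0.0684 for ODC1, 1.52 ± 0.0701 for OAZ1, 1.40 ± 0.0252 for SMOX, 1.38 ± 0.0380 for DHPS and 1.33 ± 0.0607 for OAZ2 (SD, n = 4). It was 1.13 ± 0.0616 for PAOX, 1.06 ± 0.0361 for AZIN1 and 0.962 ± 0.0233 for AMD1. The lowest were SRM, at 0.774 ± 0.0353, and MTAP, at 0.557 ± 0.0201. The segment level was lower in both knockdown libraries than in both controls at ODC1, SRM, OAZ1, OAZ2, AZIN1, SMOX and DHPS. For ODC1 it was 1.61 and 1.57 in the controls, against 1.52 and 1.45 upon knockdown. The groups overlapped at AMD1, PAOX and MTAP. Members in segments with more reads had more promoter reads, with Pearson's r 0.90 over the 10 genes, a description over values from the same libraries. The number of copies of a segment and other properties that raise its reads, such as GC content, cannot be told apart here. Divided by the level of the segment, promoter reads per bp ranged from 0.724 (OAZ1) to 1.08 (SMOX), with 9 of 10 members below 1 and a median of 0.877. Of all promoters 64.4% were below 1 and the median was 0.936.

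**Figure D3:**
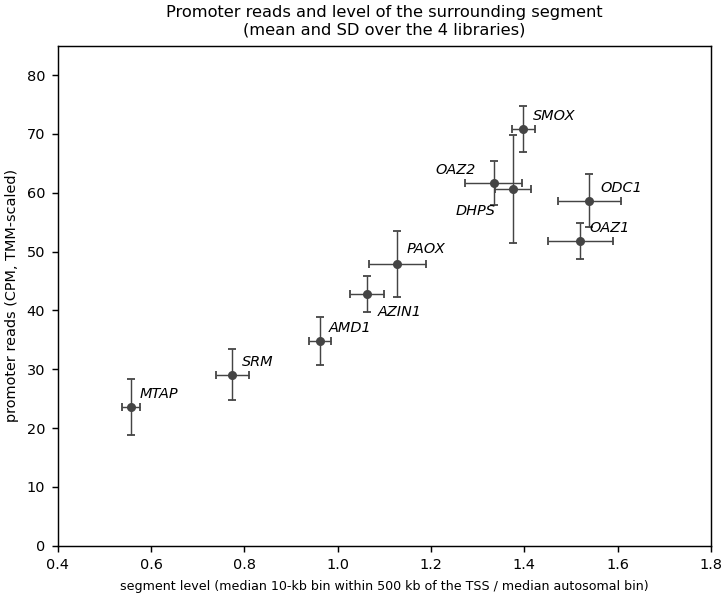
Promoter reads in CPM (y axis) against the level of the surrounding segment as a multiple of the median autosomal bin (x axis), as mean and SD over the 4 libraries for each gene. MTAP (0.557) and SRM (0.774) lie at the lower left and ODC1, OAZ1, SMOX, DHPS and OAZ2 (1.33 to 1.54) at the right.

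How tightly nucleosomes were placed was compared by the mean fuzziness of the nucleosomes within 2 kb of the TSS, weighted by reads. It was lower upon knockdown at 8 of the 10 genes, with a median difference of -0.804 bp against -0.0522 bp over all promoters. ODC1 had 34.3 and 37.6 bp in the controls, against 33.5 and 34.7 bp upon knockdown, a difference of -1.83 bp (SE 1.84). SRM had 32.3 and 35.7 bp in the controls, against 28.5 and 35.3 bp upon knockdown, a difference of -2.06 bp (SE 2.25). The groups overlapped at both genes. By limma, 0 of 10 members and 0 of 20026 promoters (0%) passed an adjusted p of 0.05, with 101 of all promoters at an unadjusted p under 0.05, and the unadjusted p of the members lay between 0.309 and 0.953. Fuzziness went with the replicate number: replicate 2, the deeper one, was higher than replicate 1 at 9 members in the controls and at all 10 upon knockdown. Over all called nucleosomes the mean was 34.6 bp in both replicates 1 and 36.1 bp in both replicates 2. Depth and anything else that goes with the replicate number cannot be told apart here. SMOX had the lowest mean fuzziness of the list, 32.3 bp, and PAOX the highest, 35.6 bp, against a median of 34.8 bp over all promoters.

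Reads over the CACGTG sites were then compared. A site was covered when a called nucleosome held its midpoint. Of the 15 sites, 10 were covered in some libraries and not in others (66.7%, against 56.8% of 11386 sites near all protein-coding genes), 3 were covered in all 4 and 2 in none. The SRM sites at -196 and +453 were covered in no library. Both PAOX sites, at +876 and +1053 in the second exon (coding), and the AZIN1 site at +356 were covered in all 4. The upstream ODC1 site at -490 was covered by 8 and 11 reads in knockdown replicates 1 and 2 and by no called nucleosome in either control. The closest dyads were 83 and 85 bp away in the controls, against 72 and 68 bp upon knockdown, on either side of the 73 bp that a called nucleosome reaches, so a small distance decided the difference. The ODC1 intron pair was covered in both replicates 1, by 6 and 12 reads, and in neither replicate 2.

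Of the 15 sites, 4 had enough reads to be tested (a mean of at least 10). By edgeR 0 of 4 passed an adjusted p of 0.05, and 0 of 5655 sites in all (0%) did, with 197 at an unadjusted p under 0.05. DESeq2 called 3 of the 5655. The SE of the 4 members' sites ranged from 0.46 to 2.14 on the log2 scale, so neither a 2-fold change nor a much larger one at a single site would reliably pass the adjusted threshold. A count of 0 in this test therefore says little about the sites. The lowest unadjusted p of the 4 was 0.278 in edgeR, for PAOX +876, with 13 and 29 reads in the controls, against 10 and 16 upon knockdown. Summing the nucleosomes with dyads within 200 bp of the site allowed 14 sites to be tested, with log2 changes from -1.30 to 1.19, 7 of them above 0, and a smallest adjusted p of 0.999. Scaled to the list totals, 2 of the 14 were higher in both knockdown libraries than in both controls and 4 were lower in both, against 14.6% and 17.5% of all 10638 sites tested. Some of these sites share nucleosomes, as the SRM pair does. The SRM site at +453 had 17 and 29 reads in the controls, against 6 and 12 upon knockdown, a difference in which the groups did not overlap, with a log2 change of -1.30 (SE 0.59) and an unadjusted p of 0.0596 in edgeR. PAOX +876 had 13 and 37 reads in the controls, against 37 and 49 upon knockdown (log2 change 0.90, SE 0.42, unadjusted p 0.0632 in edgeR), and scaled to the list totals its groups did not overlap. Its change within 200 bp and that of the covering nucleosome alone, -0.59 (SE 0.46), had opposite signs. Dyads near the edge of the 200 bp mattered at this site. Those at 654 and 1092 bp in control replicate 1 (18 and 11 reads) lay just outside. So did the one at 1078 bp in control replicate 2 (14 reads). In knockdown replicate 2 those at 677 and 1074 bp (12 and 21 reads) lay just inside, so small distances decided the difference. ODC1 -490 had 20 and 9 reads in the controls, against 23 and 35 upon knockdown, a log2 change of 0.94 (SE 0.59), and its groups did not overlap either. In control replicate 2 a nucleosome of 21 reads at -708 bp lay just outside the 200 bp. Those at -574 bp in control replicate 1 (14 reads) and at -628 and -603 bp upon knockdown (15 and 24 reads) lay inside. The size of the ODC1 change thus depended on where a dyad fell beside the edge.

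**Figure D4:**
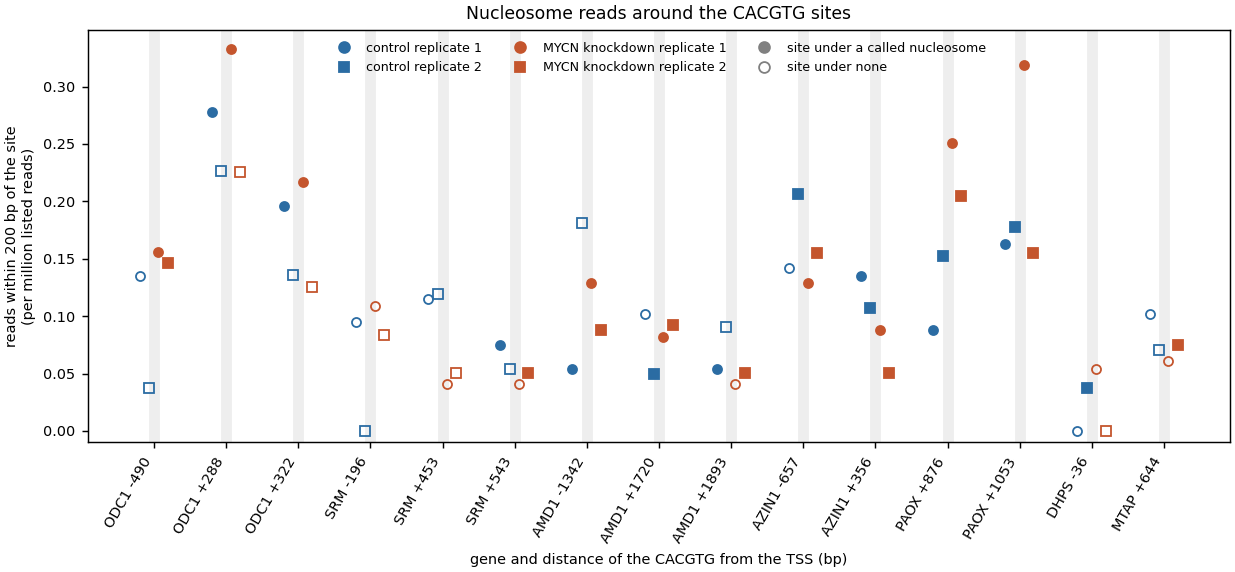
Reads of nucleosomes with dyads within 200 bp of each of the 15 CACGTG sites, per 1000000 listed reads, by gene and distance from the TSS. Circles are replicates 1, squares replicates 2, blue the controls, orange the knockdown, and filled symbols mark libraries in which a called nucleosome held the site. Symbols of one site differ in filling at 10 of the 15 sites.

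Dyads were found again about as often between the groups as within them, a description with no test. Over the 10 genes, a median of 42.9% of nucleosomes had a partner within 20 bp in the other replicate of the group, and 44.9% had one in a library of the other group, against 42.5% and 40.9% over all promoters. SMOX and OAZ2 kept their positions the most, with 63.5% and 61.7% between groups and 60.5% and 54.8% between replicates. SRM, AZIN1 and MTAP kept them the least, with 15.4%, 28.4% and 30% between replicates and 29.4%, 21.2% and 20.8% between groups. SMOX and OAZ2 also had the most promoter reads (70.8 and 61.7 CPM), and SRM and MTAP the fewest (29.1 and 23.5 CPM). AZIN1 (42.8 CPM) had more than AMD1 (34.8 CPM), so the orders were not the same throughout. Whether the number of reads sets the share was not tested.

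Profiles most like those of the synthesis genes were looked for among all genes, by Pearson's r over 80 bins of 50 bp of the share of dyad reads, averaged over the 4 libraries. For ODC1 they were MON1B (r 0.63), ALG8 (0.55) and PLXNA3 (0.54), and for AMD1 they were C6orf15 (0.57), HSD17B10 (0.54) and TTI1 (0.54). For SRM they were H3C1, NID1 and UBE2S, all at 0.59. The 99th percentile of r over 20101 genes was 0.35 for ODC1, 0.37 for SRM and 0.36 for AMD1. The named genes were picked for the highest r, so they lie above it by selection. The profile of ODC1 itself had an r of 0.11 from one control to the other and 0.40 from one knockdown library to the other. For SRM these were 0.11 and 0.033, and for AMD1 0.49 and 0.39, so these likenesses are of noisy profiles.

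A wider list of 26 genes of polyamine metabolism and transport, arginine and methionine supply and the hypusine pathway was read from the same fits. By edgeR 0 of 26 promoters passed the adjusted threshold, with 0 at an unadjusted p under 0.05 and a lowest of 0.120. The log2 change was above 0 for 9 and below 0 for 17, with a median of -0.065. The window was free in all 4 libraries at 11 of the 26, against 8 of the 10 members and 32.3% of all promoters. It was occupied in all 4 at 4, against no member and 4004 of 20079 promoters. A CACGTG within 2 kb was found at 14, against 7 of the 10 members and 43.5% of all genes. SMS, the X-linked spermine synthase, had 107 and 178 promoter reads in the controls, against 72 and 181 upon knockdown (log2 change -0.17, SE 0.21). SAT1, the X-linked acetyltransferase that starts polyamine breakdown, had 74 and 133 in the controls, against 53 and 136 upon knockdown (log2 change -0.13, SE 0.30). The groups overlapped at both genes.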

How the data were processed

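Nucleosome maps of BE(2)C cells (2 control and 2 MYCN knockdown libraries) were made by the authors by MNase-seq. Per the labels, reads were handled with CASAVA 1.9, Trim Galore 0.4.4 and Bowtie2 2.2.4 on hg19. The paper's methods describe nucleosome calls by Genetrack and state that replicates were pooled for its later steps. The lists used here are per library, so they need not be the calls behind the paper's results. The deposited values are read counts per called nucleosome, whole numbers with a minimum of 6, and fuzziness, a signal in bp computed by the authors. Totals of the lists are reads in called nucleosomes and not library depth. The siRNA concentration differs between the labels and the methods.

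Here counts were summed per promoter (2 kb upstream to 1 kb downstream) and tested across all protein-coding genes with edgeR 4.0.16 in R 4.3.3 (quasi-likelihood, TMM, group only, mean of at least 10 reads), with DESeq2 1.42.0 as an alternative and limma 3.58.1 for fuzziness. P-values were adjusted by Benjamini-Hochberg. Intervals are normal 95% intervals from the SE. An exact permutation test of 2 against 2 libraries cannot go below 0.333. Scripts were tested on simulated data. MNase cutting and amplification depend on base composition, and across promoters the log2 change had r -0.20 with GC content.

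All 10 members were named. Wider-list genes were named only if called, besides SMS and SAT1, and nucleosomes only in the window, at -1 and +1, with most reads, or over a CACGTG. The members and lists were chosen with earlier results of these data known. Sequences were read from GRCh37, and some members' sites and windows are not reported here.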

Additional observations from a re-analysis of the deposited data

How the results depend on the processing

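Each library list holds only called nucleosomes, so a change of a few reads at 1 nucleosome can add or remove it, and 2 libraries per group leave the spread poorly known. For 39 results, 301 alternative values were computed, of which 245 stayed the same within the limits set, 17 moved and 39 changed sign. The lowest adjusted p of a member under any alternative was 0.910, so the sign changes were among values that passed no threshold.

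The count of promoters called by edgeR was 0 and stayed between 0 and 1 when a library was left out, with 1 without knockdown replicate 2. DESeq2 called 3 CACGTG sites. The count of promoters called for fuzziness was between 1 and 2 with a library left out, 2 without control replicate 2. Windows free in all 4 libraries numbered 5 of 10 with 50% of a nucleosome inside, or with the dyad inside, in place of 80%. Control and knockdown replicates share numbers in the titles, but nothing says that a number marks a shared batch, and with the replicate block edgeR called 0 promoters (1175 at an unadjusted p under 0.05) and 0 sites and limma 0 promoters (1038). How far libraries with 1 number departed together from their group means was 0.294 (Pearson's r) for promoters and -0.0198 for sites. With the block, 0.5 members on average had a window filled and 0.5 one freed in same-numbered pairs, and the log2 change of AMD1 was 0.0013. A GC correction without the block, added after the data had been seen, gave 0 promoters.

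Signs changed as follows. With 500 bp on each side of the TSS, log2 changes were 0.14 for SRM, 0.70 for OAZ2, 0.097 for SMOX and -0.016 for DHPS, and with 2 kb on each side 0.052 for SRM, 0.018 for OAZ2 and -0.039 for DHPS. At equal depth they were 0.0063 for SRM, 0.026 for AMD1 and 0.012 for OAZ2. DESeq2 gave 0.0077 for AMD1, list totals without TMM -0.0039 for DHPS, and the most upstream TSS -0.14 for AZIN1. Unweighted fuzziness differences were -0.221 bp for OAZ1 and 0.0562 bp for SMOX. With 1 library left out, log2 changes ranged from -0.30 to 0.13 for SRM, -0.17 to 0.24 for AMD1, -0.13 to 0.087 for OAZ2, -0.12 to 0.050 for SMOX, -0.20 to 0.24 for DHPS and -0.0028 to 0.53 for MTAP, and without a change of sign from 0.015 to 0.21 for ODC1, 0.0036 to 0.18 for OAZ1, 0.10 to 0.21 for AZIN1 and 0.0032 to 0.35 for PAOX. Fuzziness differences then ranged from -5.47 to 1.35 bp for SRM, -2.92 to 0.259 for AMD1, -1.33 to 2.44 for OAZ1, -2.43 to 2.18 for AZIN1, -2.77 to 0.397 for PAOX, -1.64 to 1.25 for SMOX, -4.60 to 3.71 for DHPS and -0.718 to 5.59 for MTAP. The cause was not tested.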
